A study of Mus musculus with 3 samples.

Results

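The last stretch of mouse chromosome X, from Mid1 to the end of the listed positions, was examined in LSD1-bound chromatin. Its members were all single-base sites listed at mm10 X:169685000-170858231, chosen by position alone. Of the 411952 sites that MEF lists on the chromosome 1153 were members, of the 186844 in LowK 458, and of the 119257 in MidK 369. In at least 1 library 1731 of 651859 sites were members. The 1685 kb that lie just before it on the chromosome, called the neighbouring interval here, served as the comparison and held 5376, 2126 and 1312 sites.

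Chromatin bound by LSD1 (Kdm1a) was isolated with an antibody from sonicated chromatin of mouse cells and sequenced. MEF were mouse embryonic fibroblasts, labelled as somatic cells, at day 0. LowK were such fibroblasts at day 20 of reprogramming with the vector SeVdp(fKOSMaB), given no Shield1, and MidK were the same at day 20 with 30 nM Shield1. Shield1 is a small molecule that protects proteins carrying a destabilising domain from degradation. Each group was 1 library, so no difference has a replicate check and no p-value is given. The sources used here give neither the sex of the cells nor the strain behind the variant bases. Without an input library in the comparison, read shares describe coverage, and enrichment over input was not measured. Chromatin reads hold no marker expression by which the labelled cell types could be checked.

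LSD1 is a histone demethylase that removes methyl groups from lysine 4 and lysine 9 of histone H3 and acts with corepressor complexes. The distal end of the mouse X carries the pseudoautosomal region, a stretch of sequence that X and Y share and exchange in male meiosis. In the laboratory mouse its boundary lies inside Mid1, so the first part of that gene belongs to the X alone and its last part is present on both sex chromosomes. The files hold no boundary coordinate, and reads from an X copy and a Y copy of shared sequence cannot be told apart in them. Mid1 encodes a ubiquitin ligase bound to microtubules, and Asmt encodes the enzyme of the last step of melatonin synthesis.

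The RefSeq table of the same build (GRCm38.p6) places 6 genes in the interval. They are Mid1 (X:169685199-169990798, 305600 bp), the snoRNA gene Gm25651, the pseudogene 4933400A11Rik, the long noncoding RNA gene G530011O06Rik, Erdr1 (X:170010526-170018797, listed as a transcribed pseudogene) and Asmt (X:170672644-170678054, 5411 bp). Starts of both protein-coding genes are printed below because listed sites fall on them. Both sequences are from RefSeq and on the plus strand, 5′ to 3′, and capitals mark the bases listed as variable in any of the 3 libraries. The Mid1 window, the first of its 3 start windows in RefSeq, is X:169684949-169685248, the 250 bases before the annotated start and the 50 after it. In the Asmt window the 250 bases before the start are unread letters in the reference, so only X:170672644-170672693 could be printed.
Mid1: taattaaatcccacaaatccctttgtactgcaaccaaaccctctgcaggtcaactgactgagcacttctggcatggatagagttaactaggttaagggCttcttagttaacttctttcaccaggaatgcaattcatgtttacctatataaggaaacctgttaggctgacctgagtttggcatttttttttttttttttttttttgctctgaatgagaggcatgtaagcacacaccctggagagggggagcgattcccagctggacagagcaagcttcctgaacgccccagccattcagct
Asmt: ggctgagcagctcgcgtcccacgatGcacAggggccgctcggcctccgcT

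A change is written below as the B6 base, the position along chromosome X and the variant base. The capital in the Mid1 window is C169685047G, with 2 B6 and 2 variant reads in MEF, 1 variant read in LowK and no entry in MidK. The capitals in the Asmt window are G170672669A and A170672673T, each with 3 B6 and 2 variant reads in MidK alone, and T170672693C with 1 variant read each in MEF and MidK. The Asmt stretch was 74.0% G or C and held 6 CG pairs. The deposited B6 base equalled the RefSeq letter at every listed site in the chromosome's promoter windows, 1028 of 1028 for MEF, 899 of 899 for LowK and 333 of 333 for MidK.

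The chromosome's listed sites carried 883097 MEF reads, 295254 LowK reads and 203350 MidK reads by allele, a mean of 2.14, 1.58 and 1.71 reads per site. Read numbers are therefore given per 10000 such reads of the library, with exact Poisson 95% intervals. Every listed position has at least 1 variant read, the lists differ between libraries and 1 sequenced read can cover several sites, so the intervals cover counting error only and are too narrow for these sums. A region or bin was called different when reads per 10000 differed 2-fold or more with intervals apart and at least 30 reads in 1 of both libraries.

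The distal end as a whole took a larger share of reads in both reprogrammed libraries. Its reads numbered 3964 for MEF, 2448 for LowK and 4705 for MidK, which is 44.9 (43.5 to 46.3), 82.9 (79.7 to 86.3) and 231 (225 to 238) per 10000. MidK therefore had more reads there than MEF in absolute number, from a much smaller library. The share was 5.15-fold higher in MidK than in MEF and 2.79-fold higher than in LowK, and 1.85-fold higher in LowK than in MEF, the last not called. The neighbouring interval went the other way by a small amount, with 131, 108 and 102 reads per 10000. Per kb, the distal end had 0.493 times the reads of the neighbouring interval in MEF, 1.10 times in LowK and 3.26 times in MidK. Its length includes a stretch of 667 kb without a listed site in any library, which gives no count of reads and lowers all 3 values. The first 300 kb, which lie before that stretch, had 1.10 times the reads per kb in MEF, 0.799 times in LowK and 0.707 times in MidK. With each listed site counted once instead of its reads, the ratios were 0.876 for LowK against MEF, 1.11 for MidK against MEF and 1.26 for MidK against LowK, none called. Over the whole end reads per site were 3.44 in MEF, 5.34 in LowK and 12.8 in MidK, a mean over shallow and deep stretches.

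**Figure D1:**
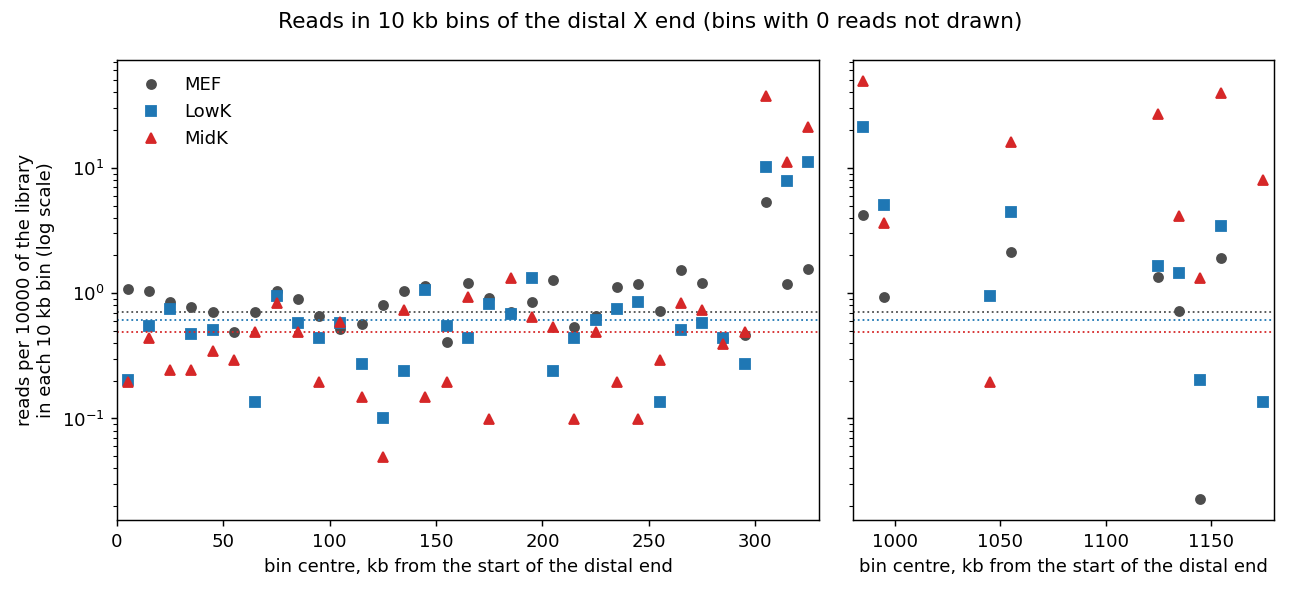
Reads per 10000 of the library in each 10 kb bin (log scale) against the distance of the bin centre from the start of the distal end, in 2 panels that leave out the empty stretch between them. Each point is 1 library in 1 bin, and dotted lines give the median 10 kb bin of the neighbouring interval in the same library. Over the first 300 kb points scatter around the dotted lines, MidK from 0.0492 to 1.33 and LowK from 0 (not drawn) to 1.32, and MidK points rise above the others in most bins beyond.

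The interval fell into parts that did not behave alike. These parts were drawn along the 50 kb bins with the data known, and their edges follow no annotated boundary. Sites are listed on both sides of the edge at X:169985000, so listing does not set it. Reads rise there: the 10 kb bin before it held 41 MEF, 8 LowK and 10 MidK reads, and the bin after it 474, 301 and 757. Differences between the first 300 kb and the rest are therefore partly fixed by where this edge was drawn. The first 300 kb (X:169685000-169984999), nearly all of it Mid1, is called the Mid1 segment here. The rest, from X:169985000 on, is called the terminal part, and it has 3 stretches with sites: the 50 kb around the end of Mid1 (the Mid1-end segment), the 50 kb around Asmt (the Asmt segment) and the last 173 kb (the end segment).

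The Mid1 segment was as shallow as the neighbouring interval, with a lower share of reads in the reprogrammed libraries. MEF had 2253 reads here, LowK 455 and MidK 261, or 25.5 (24.5 to 26.6), 15.4 (14.0 to 16.9) and 12.8 (11.3 to 14.5) per 10000. The MEF interval lay above both others, but the ratios of 0.604 for LowK and 0.503 for MidK against MEF were not called. MidK against LowK gave 0.833. Relative to the neighbouring interval of the same library these ratios were 0.730 (0.658 to 0.807) and 0.645 (0.566 to 0.734) against MEF and 0.885 between the reprogrammed libraries. Sites were shallow, with 2.19, 1.48 and 1.40 reads each against 2.15, 1.505 and 1.58 in the neighbouring interval, and 0 sites in either interval had more than 20 reads.

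The whole of the rise lay in the terminal part, whose edge was drawn where reads rise. It held 1711 reads at 126 sites in MEF, 1993 reads at 150 sites in LowK and 4444 reads at 183 sites in MidK. Per 10000 this is 19.4 (18.5 to 20.3), 67.5 (64.6 to 70.5) and 219 (212 to 225), so the 3 intervals were far apart. The ratios were 3.48 (3.26 to 3.72) for LowK against MEF, 11.3 (10.7 to 11.9) for MidK against MEF and 3.24 (3.07 to 3.41) for MidK against LowK, all called. At the 25 terminal sites listed in all 3 libraries, reads numbered 610, 704 and 1195. A listing in the smaller LowK and MidK libraries itself favours sites with many reads there. The shared sites of the neighbouring interval held 61, 56 and 58 reads, against 11556, 3199 and 2074 over all its sites. On the library totals, which do not correct for this choice, the ratios at the terminal sites were 3.45, 8.51 and 2.46. On the totals of sites shared by all 3 libraries across the chromosome they were smaller, at 1.72, 2.41 and 1.40, and only MidK against MEF was still called. With each listed site counted once, LowK was 2.62-fold and MidK 5.02-fold above MEF, both called, and MidK against LowK was 1.91, not called. Reads per site were 13.6 in MEF, 13.3 in LowK and 24.3 in MidK, against 2.14, 1.58 and 1.71 over the chromosome. Relative to the mean of their library, LowK and MidK sites here were on average deeper than MEF sites, MidK by more. Median depths, listed as MEF, LowK and MidK, were 10, 6 and 9 at terminal sites and 2, 1 and 1 in the neighbouring interval. Unscaled, the median site was thus no deeper in either reprogrammed library than in MEF. LowK and MidK thus differed from MEF in the share of sites listed and in scaled mean depth. With 1 site per 300 bp the ratios were 2.34, 6.21 and 2.66. Without the deepest 1% of each library's sites, a filter that removes most reads of this part, MidK against LowK was 1.51 and not called.

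**Figure D2:**
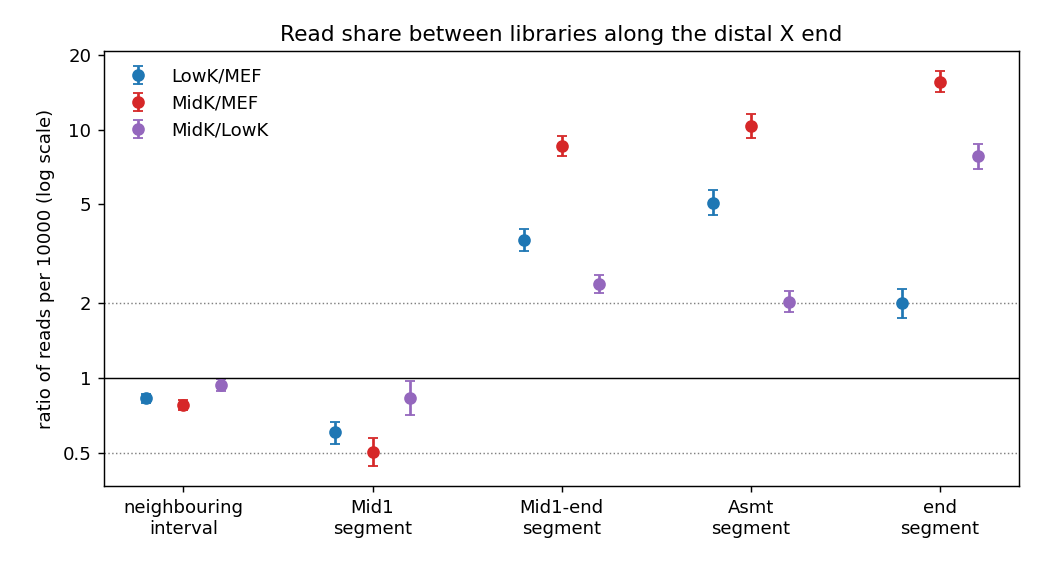
Ratio of reads per 10000 between libraries (log scale) in the neighbouring interval and in 4 stretches of the distal end, in order along the chromosome. Points are ratios with exact conditional 95% intervals, the solid line marks no difference and the dotted lines 2-fold. Ratios in the neighbouring interval and the Mid1 segment lie at or under 1, and MidK against MEF climbs from 8.60 in the Mid1-end segment to 15.6 in the end segment.

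In bins of 10 kb the same split was seen, which the edge between the parts partly fixes. The distal end has 118 such bins, and 42 of them listed a site in any library. In LowK against MEF 39 bins had the reads to be compared, of which 6 were higher, against 8.94% of such bins over the chromosome, and 10 lower, against 15.4%. In MidK against MEF 10 of 40 bins were higher, against 10.7%, and 10 were lower, against 19.0%. In MidK against LowK 7 of 12 bins were higher, against 16.8%, and 1 was lower, against 27.3%. Every higher bin lay in the terminal part, where all 10 bins compared were higher in MidK than in MEF, 1 of them, from 170855000, with no site listed in MEF and so no measured MEF level, and every lower bin lay in the Mid1 segment. The Mid1 segment's 10 lower bins of 30 in MidK against MEF compare with 36 of 159 in the neighbouring interval. In bins of 50 kb, 3 of 11 were higher in LowK than in MEF (2.63% over the chromosome), and 5 of 11 were higher in MidK than in MEF (5.15%) and in MidK than in LowK (5.46%). Lower 50 kb bins numbered 1, 3 and 1 in these comparisons, against 5.05%, 10.3% and 8.61%.

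Mid1 itself, the ubiquitin ligase gene, was lower in MidK over its annotated body. The body held 2336 reads at 1036 sites in MEF, 472 reads at 311 sites in LowK and 266 reads at 188 sites in MidK, or 26.5 (25.4 to 27.5), 16.0 (14.6 to 17.5) and 13.1 (11.6 to 14.8) per 10000. MidK against MEF was 0.495 (0.434 to 0.562), called by a small margin, LowK against MEF 0.604 and MidK against LowK 0.818. The call for MidK was lost with shared sites only (0.616), with 1 site per 300 bp (0.571), with each site counted once (0.627) and without the deepest 1% of sites (0.544). The last 5.80 kb of the gene, which reach into the terminal part, did not stand apart in direction: they held 87, 18 and 5 reads, a ratio of 0.250 (0.0791 to 0.605) for MidK against MEF. Over the gene body, where a site had 2 or more reads of both alleles, the variant share was 50.7% (46.3 to 55.1) in MEF from 90 sites, 45.9% (33.1 to 59.2) in LowK from 12 sites and 47.6% (25.7 to 70.2) in MidK from 3 sites.

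Just past the end of Mid1 the picture changed. The 5 kb after the gene (X:169990799-169995798), a window chosen after seeing the data, held 417 reads at 20 sites in MEF, 329 at 16 sites in LowK and 812 at 21 sites in MidK. Per 10000 these are 4.72, 11.1 and 39.9, so MidK was 8.46-fold (7.51 to 9.54) above MEF and 3.58-fold above LowK, and LowK was 2.36-fold above MEF. Its sites were 20.9, 20.6 and 38.7 reads deep, and all of them carried B6 reads. For comparison, the 5 kb before Mid1 held 41, 2 and 2 reads. When 5 kb on both sides are added to Mid1, the gene's ratio for MidK turns from 0.495 to 1.68 against MEF and from 0.818 to 1.95 against LowK, neither called; the reads that turn it lie outside the gene body.

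The Mid1-end segment, which holds these sites, had 715 MEF, 860 LowK and 1416 MidK reads, or 8.10, 29.1 and 69.6 per 10000. LowK was 3.60-fold (3.25 to 3.98) and MidK 8.60-fold (7.86 to 9.42) above MEF, and MidK 2.39-fold above LowK. Reads per kb were 2.09, 9.06 and 23.0 times those of the neighbouring interval. Its listed sites ended at position 170005540, and no site was listed in Erdr1, which starts about 5 kb further on. Nearly all reads here lay on deep sites: without the deepest 1% of sites 26 MEF, 11 LowK and 5 MidK reads remained. Their ratios of 0.877 (0.263 to 2.32) for MidK against MEF, 0.691 (0.188 to 2.16) for MidK against LowK and 1.27 (0.566 to 2.66) for LowK against MEF have intervals on both sides of 1 and show no direction. MidK against MEF was 2.29 at shared sites, 3.09 with each site counted once and 5.45 with 1 site per 300 bp. LowK against MEF was lost at shared sites (1.88) and with each site counted once (1.80), and MidK against LowK at shared sites (1.22), with each site counted once (1.72) and with 1 site per 300 bp (1.76).

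The deepest site of this segment in MEF and in MidK was C169994675A, beyond the end of Mid1. It had 40 B6 and 28 variant reads in MEF, 30 and 24 in LowK and 77 and 59 in MidK. Both alleles were present in each library, and MidK had the most reads of either. Its neighbour G169994679T, 4 bases on, had 30 and 28, 28 and 24, and 72 and 57, and largely the same reads can cover both. A170004357T had 19 B6 and 35 variant reads in MEF, 31 and 25 in LowK and 38 and 39 in MidK. A cluster lay near the last listed position and held the deepest sites of the segment in LowK. C170005344G had 17 and 25 reads in MEF, 22 and 60 in LowK and 10 and 57 in MidK, and G170005358C had 17 and 17, 16 and 66, and 10 and 47. Per 10000, B6 reads were at 0.193 in MEF, 0.745 in LowK and 0.492 in MidK at the first and 0.193, 0.542 and 0.492 at the second. Variant reads were at 0.283, 2.03 and 2.80 and at 0.193, 2.24 and 2.31. On library totals both alleles were thus higher in the reprogrammed libraries, the variant by more. In number, MidK had fewer B6 reads than MEF at both sites, 10 against 17. Both sites are listed in all 3 libraries, a choice that favours LowK and MidK on library totals. Whether B6 reads rose in MidK here therefore depends on the scaling. The sites lie close together and can share reads, so they are not separate observations. The variant share at G170005358C was 50% (32.4 to 67.6) in MEF, 80.5% (70.3 to 88.4) in LowK and 82.5% (70.1 to 91.3) in MidK. A one-base insertion at X:170005339, C to CA, was the one insertion or deletion listed in all 3 libraries, with 23 and 18, 41 and 38, and 39 and 28 reads.

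Asmt, the melatonin synthesis gene, was higher in both reprogrammed libraries. It held 454 reads at 44 sites in MEF, 771 reads at 85 sites in LowK and 1080 reads at 87 sites in MidK. These are 5.14 (4.68 to 5.64), 26.1 (24.3 to 28.0) and 53.1 (49.99 to 56.4) per 10000, and no interval overlaps another. LowK was 5.08-fold (4.52 to 5.72) and MidK 10.3-fold (9.25 to 11.6) above MEF, and MidK 2.03-fold (1.85 to 2.23) above LowK. All listed sites of the Asmt segment lay inside the gene. The 250 bases before its start are unread letters in the reference, where no site can be listed. Per kb of gene, reads per 10000 were 0.950, 4.83 and 9.82 on Asmt against 0.0866, 0.0523 and 0.0428 on Mid1. On the totals of shared sites the Asmt ratios were 1.60, 1.75 and 1.09, none called, and MidK against LowK was also lost in 5 further settings (1.33 to 1.996). The 10 kb bin that holds most of the gene (from 170665000) ranked 12 among all bins of the chromosome in MEF and 2 in both LowK and MidK.

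Within Asmt reads piled up at its start. The sequence just before it is unread in the reference, so a flank could not be compared. The first 1 kb of the gene (X:170672644-170673643), chosen after seeing the data, held 76.2% of the gene's reads in MEF (346 of 454), 61.2% of them in LowK (472 of 771) and 79.8% in MidK (862 of 1080). Sites there were 21.6, 24.8 and 35.9 reads deep, against 3.86, 4.53 and 3.46 over the remaining 4.41 kb. In the first 1 kb MidK was 10.8-fold above MEF and 2.65-fold (2.37 to 2.97) above LowK. Over the rest of the gene LowK and MidK were both above MEF, 8.28-fold and 8.77-fold, while MidK against LowK was 1.06 (0.885 to 1.26). Over all listed sites, the difference between LowK and MidK on Asmt was thus seen in its first 1 kb. The sites listed there differ between the libraries. C170673444T gave 192 of the 472 LowK reads and has no MidK entry, and G170673479T gave 136 of the 862 MidK reads and has no LowK entry. On the totals of shared sites MidK against LowK was 1.09 (0.890 to 1.34) over the gene.

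**Figure D3:**
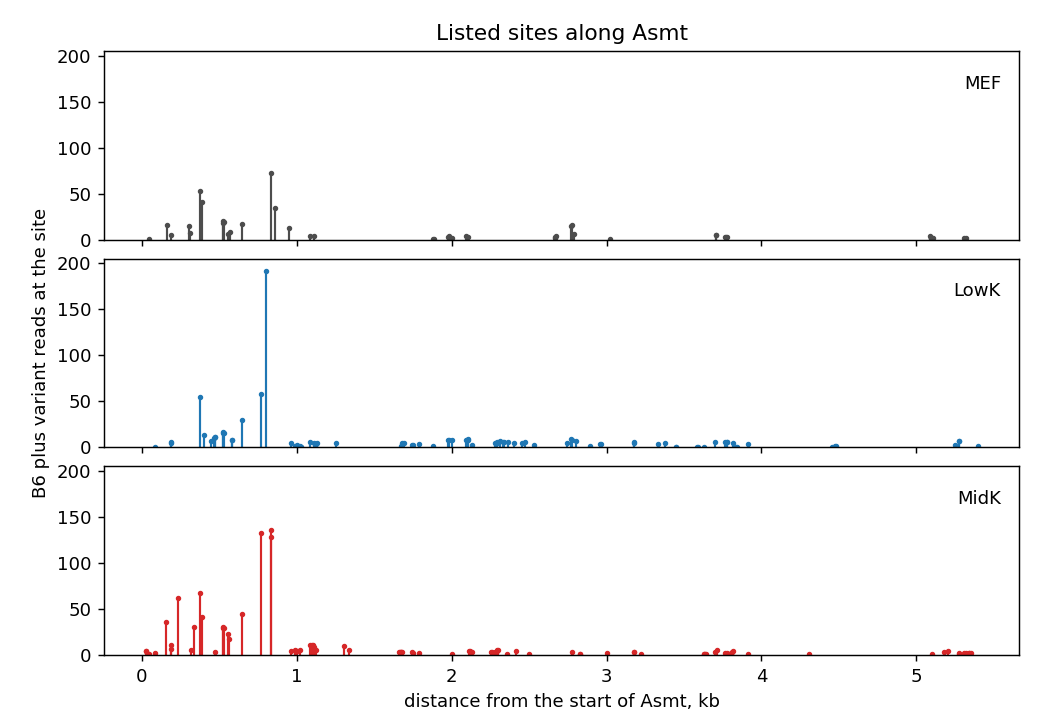
B6 plus variant reads at each listed single-base site of Asmt against the distance from the start of the gene, 1 panel per library, with the same axis in all. The tall sites stand in the first 1 kb in all 3 libraries, and sites beyond it stay at 16 reads or fewer.

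The deepest site of the whole interval was C170673444T in the first 1 kb of Asmt, with 124 B6 and 68 variant reads in LowK. Another 63 reads there carried neither base, and it was listed in neither other library. Its depth of 255 was the largest in the LowK list, and the largest depths in the MEF and MidK lists were 250 and 251. The sources used here state no limit on depth in the variant calling, and its part in these counts was not tested. G170673415T had 35 and 23 reads in LowK and 76 and 57 in MidK, and G170673479T had 42 and 30 in MEF and 69 and 67 in MidK, each without an entry in the other library. C170673019T was listed in all 3, with 20 and 33 reads in MEF, 33 and 22 in LowK and 34 and 34 in MidK.

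3 neighbouring bases of Asmt showed how share and reads moved apart. G170673169T, G170673171T and A170673173G had variant shares of 83.3%, 85.0% and 94.7% in MEF, 64.7%, 62.5% and 81.3% in LowK and 46.7%, 51.6% and 72.4% in MidK. The order was the same at each, MEF above LowK above MidK, but the intervals overlapped at all 3. They lie within 5 bases of each other and share their reads, so they count as 1 observation. In MEF only 1 to 3 reads at these bases were B6.

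The end segment separated MidK from the other libraries. MEF had 542 reads here, LowK 362 and MidK 1948, or 6.14 (5.63 to 6.68), 12.3 (11.0 to 13.6) and 95.8 (91.6 to 100.1) per 10000. MidK was 15.6-fold (14.2 to 17.2) above MEF and 7.81-fold (6.98 to 8.77) above LowK. LowK against MEF was 1.998 (1.74 to 2.29), just under the 2-fold limit, and passed it in 4 of the alternative settings (2.19 to 3.35). The MidK ratios were smaller at sites listed in all 3 libraries (4.37 against MEF and 3.72 against LowK), with each site counted once (4.87 and 2.86) and with 1 site per 300 bp (8.86 and 4.56), all called. No gene of the RefSeq table lies in this segment. Without the deepest 1% of sites, MidK against LowK was 1.92 and not called.

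Within it 7 bins of 10 kb listed sites in at least 1 library. The bin from 170835000 held 168, 102 and 796 reads, a MidK level 20.6-fold above MEF and 11.3-fold above LowK, and its rank on the chromosome was 75 in MEF, 34 in LowK and 4 in MidK. The bin from 170805000 held 119, 49 and 551 reads, 20.1-fold and 16.3-fold, with ranks of 408, 613 and 6. The last bin, from 170855000, listed no site in MEF, 4 reads in LowK and 162 in MidK. One bin went another way: the bin from 170725000 had no site in MEF, 28 reads in LowK and 4 in MidK, too few to be compared. In 2 bins both steps were called. The bin from 170735000 had 189, 130 and 324 reads, with LowK 2.06-fold above MEF and MidK 3.62-fold above LowK, and the bin from 170815000 had 64, 43 and 84 reads, with 2.01-fold and 2.84-fold.

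Among single sites, C170843105T was the deepest in MidK, with 65 B6 and 78 variant reads, and had no entry in MEF or LowK. Close by, C170843149T had 25 and 11 reads in MEF, 14 and 14 in LowK and 70 and 60 in MidK, and C170843144T, 5 bases before it, had 27 and 11, 13 and 13, and 70 and 56. Per 10000, B6 reads at C170843149T were at 0.283, 0.474 and 3.44 and variant reads at 0.125, 0.474 and 2.95, in the order MEF, LowK and MidK. MidK was the highest for both alleles. G170736693C showed the reverse listing, with 50 B6 and 13 variant reads in MEF and no entry in the reprogrammed libraries.

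Sites of the terminal part differed from the rest of the interval in depth and in alleles as well as in number. Mean reads per site were 13.6, 13.3 and 24.3, and 23 MEF, 28 LowK and 64 MidK sites had more than 20 reads, all sites of this depth in the distal end. Sites at which both alleles had 2 or more reads made up 67.5%, 58.7% and 69.9% of the terminal sites, against 8.28%, 3.57% and 1.61% in the Mid1 segment and 7.63%, 3.06% and 5.49% in the neighbouring interval. Sites without a B6 read were 20.6%, 24.0% and 23.0% of the terminal sites but 81.0%, 93.2% and 93.0% of those in the Mid1 segment. A deeper site shows both alleles more readily, so these shares are not free of depth. Among sites with at least 5 reads, those with a variant share of 20% to 80% made up 89.2%, 80.8% and 88.4% of 83, 104 and 129 terminal sites. In MEF, the one library with many such sites elsewhere, it was 64.3% of 84 in the Mid1 segment and 76.5% of 421 in the neighbouring interval. MEF sites with variant reads alone were 0 of 83, 21 of 84 and 75 of 421. In LowK and MidK the neighbouring interval went the other way, at 91.3% of 46 and 93.9% of 49 sites, above the terminal part. Sites with variant reads alone were 5 of 104 terminal and 1 of 46 neighbouring sites in LowK, and 1 of 129 and 1 of 49 in MidK.

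**Figure D4:**
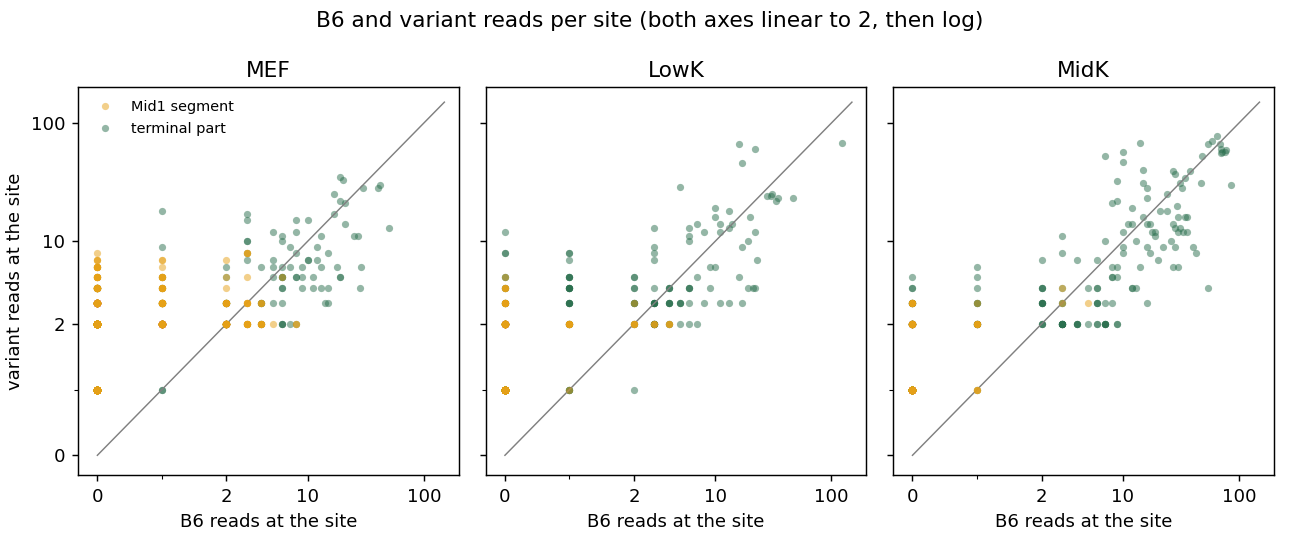
Variant reads against B6 reads at each listed single-base site, 1 panel per library, with the Mid1 segment and the terminal part in different colours (both axes linear up to 2 reads and logarithmic beyond). The diagonal marks equal numbers. Sites of the Mid1 segment crowd at 0 or few B6 reads, and terminal sites spread along both sides of the diagonal. They reach over 60 reads of each allele in LowK and MidK, and the deepest MEF site has 42 B6 and 30 variant reads.

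Other features set the terminal sites apart in all 3 libraries. Reads that carried neither the B6 nor the listed variant base were 13.5%, 13.7% and 13.3% of the depth at terminal sites, 3.30%, 2.36% and 2.25% in the Mid1 segment and 3.19%, 2.20% and 2.99% in the neighbouring interval. They made up 12.4% to 17.0% in the Asmt and end segments and 10.2% to 12.1% in the Mid1-end segment. A site of depth 1 can hold no such read, because its only read must be variant. Sites with 1 read by allele made up 8.73%, 11.3% and 10.4% of the terminal part. In the Mid1 segment they made up 45.7%, 72.1% and 75.8%. The contrast in reads of neither base is therefore not free of depth. Transitions (A to G, C to T and their reverses) were 47.6%, 51.3% and 46.4% of terminal sites, against 59.7%, 60.7% and 61.8% in the Mid1 segment and 61.5%, 61.8% and 60.7% in the neighbouring interval. Within the terminal part the Asmt segment, at 63.6%, 64.7% and 58.6%, was close to the neighbouring interval. The Mid1-end segment (42.1%, 29.0% and 38.2%) and the end segment (36.4%, 38.2% and 33.9%) were lower. The share of terminal reads with neither base was alike in the 3 libraries. The part of reads from other copies of the sequence in these values was not tested.

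Over all listed reads of the distal end 68.6% were variant in MEF, 59.0% in LowK and 49.8% in MidK, which carries the need for a variant read at each listed site and the many shallow Mid1 sites. In the terminal part alone these shares were 46.9%, 51.7% and 47.3%. Where both alleles had 2 or more reads at a site, a filter that itself draws shares toward the middle, the variant share was 45.2% (43.1 to 47.4) in MEF from 170 sites, 47.4% (45.1 to 49.7) in LowK from 99 sites and 46.0% (44.5 to 47.5) in MidK from 131 sites. The 3 intervals overlap. The neighbouring interval gave 49.5%, 50.2% and 43.2%. Asmt gave 50.1% (45.1 to 55.2), 41.7% (37.8 to 45.7) and 48.5% (45.3 to 51.7), with LowK lowest and its interval touching both others. In the terminal part B6 reads numbered 909, 963 and 2343 and variant reads 802, 1030 and 2101, so both alleles had more reads in the reprogrammed libraries, from smaller library totals.

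Single 50 kb bins did differ in variant share. A bin was called when shares lay 10 points or more apart with Clopper-Pearson intervals apart and at least 50 reads in both libraries. In LowK against MEF 1 of 5 bins was called (7.32% of such bins over the chromosome), in MidK against MEF 3 of 5 (13.0%) and in MidK against LowK 1 of 5 (16.7%). All called bins lay in the end segment. The last bin, from 170835000, had a share of 25.5% (18.9 to 33.0) in MEF, 44.3% (33.7 to 55.3) in LowK and 48.1% (44.9 to 51.3) in MidK, with MEF below both others. The bin from 170735000 had 34.6%, 48.8% and 48.8%, called for MidK. The bin from 170785000 went the other way, with 53.5%, 59.3% and 39.6%, MidK below both others. The MEF and LowK shares of these bins rest on 3 to 12 sites each. No call was left without sites of more than 20 reads, a setting that compared 3, 4 and 3 bins.

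At 17 sites, all in the terminal part, each library had at least 10 reads. Several of them lie a few bases apart and can share reads, so the 17 are not separate observations. No such count over other sites of the chromosome is given beside them. Reads per 10000 were higher at 17 of 17 in LowK than in MEF, in MidK than in MEF and in MidK than in LowK, with median ratios of 3.10 (lowest 2.05, highest 7.21), 7.28 (5.57 to 20.0) and 2.56 (1.01 to 7.04). The minimum of 10 reads in each library by itself put LowK above MEF at 8 of these sites and MidK above MEF at 13, so the direction there is no finding. On the totals of shared sites over the chromosome, the median ratios were 1.54 (1.02 to 3.59), 2.06 (1.58 to 5.68) and 1.46 (0.575 to 4.01), and MidK was above LowK at 13 of the 17. The variant share had no common direction, higher at 8, 9 and 9 of the 17 sites. Its median over sites was 50%, 50% and 46.7%, and its range was 16.7% to 94.7% in MEF, 15% to 81.3% in LowK and 25.9% to 88.3% in MidK. Intervals were apart at 1 site for LowK and for MidK against MEF, the site G170005358C named above, and at 0 sites for MidK against LowK. C169995028T had the largest MidK share, with 3 B6 and 10 variant reads in MEF, 8 and 12 in LowK and 7 and 53 in MidK, but its intervals overlapped.

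**Figure D5:**
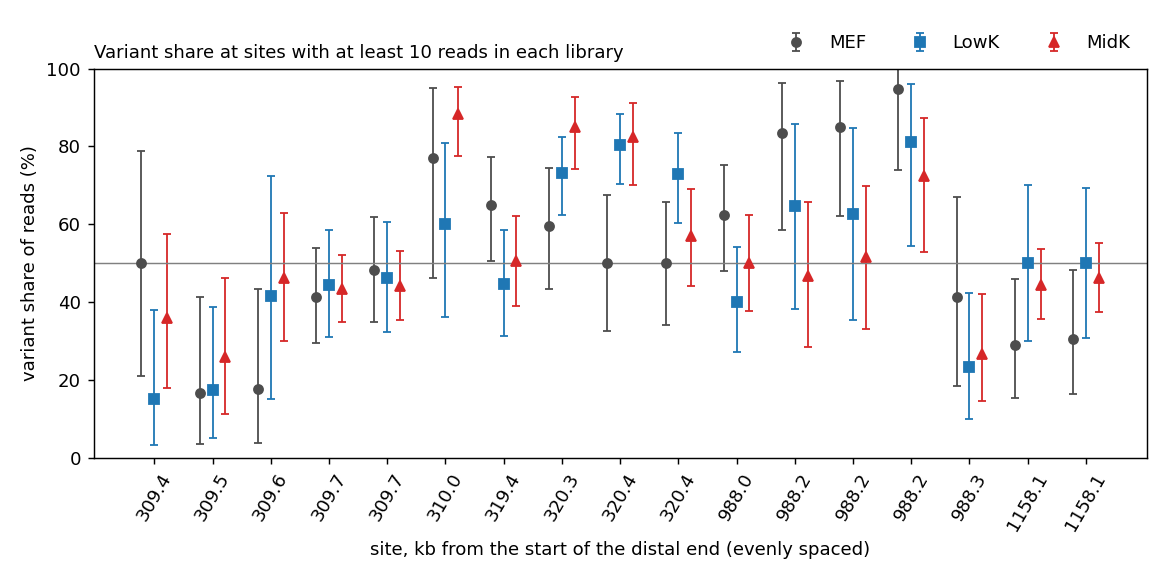
Variant share of reads at the 17 sites with at least 10 reads in each library, in order along the chromosome and labelled by the distance in kb from the start of the distal end. Points are shares with Clopper-Pearson 95% intervals and the line marks 50%. Shares range widely between sites, and the libraries' intervals overlap at all but 1 site.

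The remaining genes held little or nothing. The pseudogene 4933400A11Rik, inside the span of Mid1, had 17 MEF, 3 LowK and 2 MidK reads, too few to be compared. Gm25651, G530011O06Rik and Erdr1 had no listed site in any library. Between positions 170005540 and 170672669 no site was listed over 667 kb in any of the 3 libraries, and 12 of the 24 bins of 50 kb were empty. The files list only positions with a variant read, so an empty stretch or an unlisted site gives no count of reads.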

How the data were processed

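Alignment used BWA and the build mm10, per the submitters' processing notes, and the series' design text names bcftools mpileup for the alleles. The sources used here state no versions, filters or removal of duplicates. The deposited counts give depth, B6 reads and variant reads per listed position, per the file headers. The deposited reliability score rates each call and entered 1 alternative. Each sample's group came from its title, 1 library per group. In the MidK file the header of the score column carries another name than its count columns; the file was taken as MidK from the series' own record of its sample.

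Single-base sites were summed over bins of 10 and 50 kb counted from the start of the interval, over genes and over segments. Intervals are exact Poisson, conditional binomial (ratios) and Clopper-Pearson, at 95%, and cover counting error only. Named were every gene of the interval, the 5 deepest bins and called bins of largest and smallest ratio, the 5 deepest sites per library and sites with at least 10 reads in all 3; the text gives a selection. The members and lists were chosen with earlier results of these data known. Alternatives changed scaling, sites, grid and minimum. Python 3.11.15, pandas 2.3.3 and SciPy 1.17.1 were used.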

Additional observations from a re-analysis of the deposited data

Results flagged for a closer look

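Reads outside the B6 and variant counts of single-base sites were also present. Insertions and deletions of the distal end held 249 MEF reads at 90 entries, 140 LowK reads at 31 entries and 83 MidK reads at 14 entries. Of these, 55, 106 and 70 reads lay in the terminal part. At single-base sites of the terminal part, 268 MEF, 317 LowK and 684 MidK reads carried neither listed base. No control library gives a background for either number.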

How the results depend on the processing

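No paired analysis was possible because each group holds 1 library, and leaving out a library would leave a comparison without one of its groups. The rise of the terminal part in MidK over MEF kept its direction and call under every alternative run (2.41 to 21.2), and LowK over MEF lost its call at sites listed in all 3 libraries (1.72), as did MidK over LowK (1.40), which was also lost with each site counted once (1.91) and without the deepest 1% of sites (1.51). For the whole distal end, LowK over MEF passed 2-fold when scaled to the median 50 kb bin (2.02) or the neighbouring interval (2.23) and at a reliability of at least 20 (2.65), and turned below 1 with each site counted once (0.876) and without the deepest 1% (0.955); MidK over MEF was not called in those settings (1.11 and 1.05), nor MidK over LowK (1.26, 1.10, and 1.40 at shared sites). The Mid1 segment in MidK against MEF was called lower with insertions and deletions (0.497) and at a reliability of at least 20 (0.407). With 5 kb on both sides, chosen after seeing the data, Mid1 in MidK turned above 1 (1.68 against MEF, 1.95 against LowK). Other values on the far side of 1 rest on few reads and have intervals that span 1: the Mid1-end segment without the deepest 1% (MidK 0.877 of MEF and 0.691 of LowK, from 5 MidK, 11 LowK and 26 MEF reads) and Mid1 in LowK against MEF at shared sites (1.30, from 7 and 8 reads).

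Reads per kb against the neighbouring interval were taken over the whole distal end, with its stretch that lists no site. In the order MEF, LowK and MidK, they were 14.5, 18.1 and 29.6 at shared sites and 0.434, 0.697 and 1.38 with 1 site per 300 bp. They were 0.308, 0.309 and 0.404 with each site counted once and 0.299, 0.338 and 0.380 without the deepest 1%. At a reliability of at least 20 LowK gave 1.66 and MidK 5.56, and against the rest of the chromosome MEF gave 0.640 and LowK 1.19. Bins of 10 kb are given in the order LowK against MEF, MidK against MEF and MidK against LowK. The main setting compared 39, 40 and 12. At shared sites 5 were compared in each, of which 1, 3 and 1 were higher and 0 lower. With each site counted once 24, 24 and 2 were compared, of which 2, 2 and 0 were higher and 5, 3 and 0 lower. Without the deepest 1% 32, 33 and 5 were compared, of which 2, 3 and 1 were higher. With 1 site per 300 bp 19, 21 and 9 were compared. Of these 3 were higher in LowK against MEF, and 2, 3 and 0 lower. Lost calls are thus partly lost bins, and no chromosome share is given for these settings. MidK had 6 of 40 bins below MEF when scaled to the neighbouring interval. Against LowK it had 0 of 9 lower at a reliability of at least 20, 4 of 37 with a minimum of 10 reads and 2 of 11 on a shifted grid. Of 50 kb bins the main setting compared 11 in each comparison. At shared sites 3 were compared in each, of which 0, 2 and 1 were higher and 0 lower. With each site counted once 8 were compared in each, of which 1, 2 and 0 were higher. In both MidK comparisons 0 of these were lower. Without the deepest 1% 2 of 8 were higher in MidK against MEF and 1 of 9 against LowK. In that setting 0 of 8 were lower in LowK against MEF and 0 of 9 in MidK against LowK. Scaling to the neighbouring interval left 0 lower in LowK against MEF and MidK against LowK, as did the median bin, 1 site per 300 bp (3 higher) and a shifted grid in the latter; a reliability of at least 20 gave 2 lower in both and a minimum of 10 reads 2 in the latter. The variant share, in the order MEF, LowK and MidK, was 51.7%, 55.2% and 52.3% at sites with at least 5 reads in each library, and the variant base had the majority at 39.7%, 34.1% and 32.5% of untied sites. MEF gave 50.5% with at least 1 read of each allele and 47.9% without sites of more than 20 reads, where MidK gave 40.2%; with 1 site per 300 bp LowK gave 42.4% and MidK 48.8%, and at a reliability of at least 20 they gave 51.9% and 49.9%. Bins called for variant share are given in the order LowK against MEF, MidK against MEF and MidK against LowK. Without sites of more than 20 reads they were 0 of 3, 0 of 4 and 0 of 3. With 1 site per 300 bp they were 0 of 3 in the first and last. At sites with at least 5 reads in each library they were 1 of 3 and 0 of 3 in the last 2. At a reliability of at least 20 they were 2 of 3 in the first. Other than for the sites left out by construction, the cause of these changes was not tested.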
